A study of Mus musculus with 36 samples.

Results

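The 8 genes described here, *Itgax*, *Xcr1*, *Clec9a*, *Flt3*, *Cd209a*, *Zbtb46*, *Batf3* and *Irf8*, are used as genes of dendritic cells, and they were followed across epididymal white adipose tissue (eWAT). They were taken by symbol from a table of 24750 gene rows, and each of the 8 had 1 row. Total RNA of eWAT from 36 male mice, 1 library per mouse, was read by RNA-sequencing. The purpose was to look for adipose factors that go with worse periodontitis when the chemokine CCL19 is overexpressed. The mice fell into 12 groups of 3. Wild-type (WT) C57BL/6 mice or CCL19-KI mice received a normal diet (ND), a high-fat diet of 40% fat (40% HFD) or one of 60% fat (60% HFD) for 10 weeks, with or without a ligature that induces periodontitis for the last 2 of those weeks. CCL19-KI mice carry *Ccl19* knocked into the *Adipoq* locus, which drives it in adipocytes and leaves *Adipoq* itself intact. They are homozygous and were bred separately from the WT mice, so that genotype and breeding colony cannot be told apart. The series' design text mentions ligatures without naming unligatured mice, whereas the sample labels give a ligature to 18 of the 36 mice, and the labels were followed. Lymph nodes were taken out of the eWAT before RNA extraction.

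Conventional dendritic cells take up antigen, carry it to lymph nodes along gradients of CCL19 and CCL21, and present it to T cells. They divide into cDC1, which cross-present antigen to CD8+ T cells, and cDC2, which mainly prime CD4+ T cells. *Itgax* encodes the integrin CD11c, which marks dendritic cells but in fat also marks macrophages of obese tissue. *Flt3* encodes the receptor for the growth factor FLT3L, on which dendritic cell development depends. *Xcr1*, a chemokine receptor, and *Clec9a*, a lectin that binds the actin of dead cells, mark cDC1. *Cd209a*, a lectin of the DC-SIGN family, is found on cDC2 and on monocyte-derived dendritic cells. *Zbtb46*, *Batf3* and *Irf8* encode transcription factors. *Zbtb46* is made in the conventional dendritic cell lineage and in endothelial cells, *Batf3* is needed for cDC1, and *Irf8* serves cDC1, monocytes, macrophages and B cells.

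Values are normalized CPM (reads on a gene scaled to a library of fixed size), as deposited. The libraries held 11962228 to 21581595 reads on genes, with a median of 15573273, and 1 read was worth 0.0472 to 0.0834 CPM. All 8 genes passed the filter on low values, which 17852 genes passed, although the mean of *Xcr1* over all libraries was under 1 CPM. Adipocyte markers summed to between 4507 and 26544 CPM in every library, as the labelled tissue would have. Liver RNA varied widely, with hepatocyte markers summing to between 10.7 and 35915 CPM. The knocked-in gene was checked first. *Ccl19* ranged from 0.507 to 19.2 CPM with a median of 1.25 in the 18 libraries labelled WT, and from 0.687 to 34.6 CPM with a median of 16.2 in the 18 labelled CCL19-KI (log2 difference 2.53, SE 0.25, adjusted p = 8.77e-07, limma). The library labelled WT ND replicate 2, at 19.2 CPM of *Ccl19*, and the library labelled CCL19-KI 60% HFD replicate 3, at 0.687 CPM, went against their labels. Both also held RNA of the epididymis, whose markers summed to 4740 and 9543 CPM, against 4214 CPM in the highest of the other libraries. Comparisons are therefore given with all 36 libraries and, where a call or a described direction differs, also with the 34 that remain, an alternative added after the data were seen. Another library, WT ND replicate 1, had no such conflict but stood apart in immune genes, with the highest summed MHC class II genes (3038 CPM) and macrophage markers (3589 CPM) of all libraries.

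The promoter sequences of 2 members, *Itgax* and *Clec9a*, are shown because their genes carry results on diet and genotype, and they let the reader see which short motifs lie near the start sites. Each is the 250 bases before the start site in RefSeq on GRCm38.p6, read 5′ to 3′ on the strand of the gene, and capitals mark a match to a searched motif on either strand. *Itgax* lies on the plus strand of chromosome 7 and its window is chr7:128129300-128129549. *Clec9a* lies on the plus strand of chromosome 6 and its window is chr6:129408612-129408861.
Itgax: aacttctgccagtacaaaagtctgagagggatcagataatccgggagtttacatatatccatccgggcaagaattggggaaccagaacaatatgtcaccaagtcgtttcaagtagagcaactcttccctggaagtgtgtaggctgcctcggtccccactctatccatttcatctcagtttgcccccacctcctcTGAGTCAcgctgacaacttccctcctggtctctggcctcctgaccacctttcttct
Clec9a: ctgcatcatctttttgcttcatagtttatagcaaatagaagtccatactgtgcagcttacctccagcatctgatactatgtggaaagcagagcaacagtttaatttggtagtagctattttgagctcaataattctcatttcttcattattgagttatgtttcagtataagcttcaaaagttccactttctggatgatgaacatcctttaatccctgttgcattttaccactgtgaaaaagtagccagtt
The capitals in *Itgax* are a match to the AP-1 motif TGANTCA at positions -56 to -50 from the start site, a motif held by 6.75% of 32851 promoter windows of the same length. The window of *Clec9a* held none of the 5 motifs searched. The RefSeq start of *Itgax* lies 3 bases inside its GENCODE gene and that of *Clec9a* at its first base. Starts of 3 other windows lie farther inside, by 567 bases in *Batf3*, 2281 bases at the second of 2 starts of *Irf8* and 35038 bases in *Zbtb46*, so those windows may not be promoters of the annotated genes and are not shown. The one of *Batf3* held an ETS core match, the one of *Zbtb46* an AP-1 match that overlaps an AP-1-IRF composite match, and the one of *Irf8* none. The remaining windows, of *Xcr1*, *Flt3*, *Cd209a* and the first start of *Irf8*, held no match. The other motifs searched were the interferon response element (2.98% of windows), the ETS-IRF composite (2.30%), the ETS core GAGGAA (23.3%) and the AP-1-IRF composite (0.10%), which contains the AP-1 motif. A match is only a stretch of letters, and binding was not measured.

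In the GENCODE M21 annotation of GRCm38 the 8 genes lie on 7 chromosomes. *Itgax* (ENSMUSG00000030789) spans chr7:128129547-128150657 on the plus strand, *Xcr1* (ENSMUSG00000060509) chr9:123852315-123862029 on the minus strand, and *Clec9a* (ENSMUSG00000046080) chr6:129408862-129424763 on the plus strand. *Flt3* (ENSMUSG00000042817) spans chr5:147330741-147400489 and *Zbtb46* (ENSMUSG00000027583) chr2:181387762-181459426, both on the minus strand. *Batf3* (ENSMUSG00000026630) spans chr1:191097847-191108945 on the plus strand. *Cd209a* (ENSMUSG00000031494, chr8:3743397-3748984, minus strand) and *Irf8* (ENSMUSG00000041515, chr8:120736358-120756694, plus strand) share a chromosome but lie far apart. Lengths used below are those of the union of a gene's exons.

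The levels of the 8 genes per length of transcript differed widely. *Cd209a* was highest, at a mean over the 36 libraries of 6.33 CPM per kilobase of exon, followed by *Itgax* at 3.83, *Irf8* at 2.70, *Zbtb46* at 1.52 and *Batf3* at 1.07. *Clec9a* reached 0.678 CPM per kilobase, *Flt3* 0.358 and *Xcr1* 0.196. This order is that of the means over all libraries and shifts with *Itgax* and *Batf3*. In ligatured CCL19-KI mice on 60% HFD *Itgax* was first, at 10.6 CPM per kilobase against 6.85 for *Cd209a*, and over the 12 ND libraries it stood at 2.10, under *Irf8* at 2.49. *Batf3* stood above *Zbtb46* in CCL19-KI mice on 40% HFD without ligature, at 1.58 against 1.38. It stood under *Clec9a* in ligatured WT mice on ND, at 0.498 against 0.556. The cDC1 receptor *Xcr1* was thus the lowest of the 8, with 4 to 32 reads per library and under 1 CPM in 24 of the 36. The spread between mice of 1 group, as a coefficient of variation, was 74.2% for *Itgax* and 15.4% for *Zbtb46*, well above the 5.87% and 7.09% that counting alone would give. For *Xcr1* it was 35.4% against 27.1% from counting, so that counting error alone would give most of it. In bulk tissue, fewer dendritic cells and less RNA per cell cannot be told apart.

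**Figure D1:**
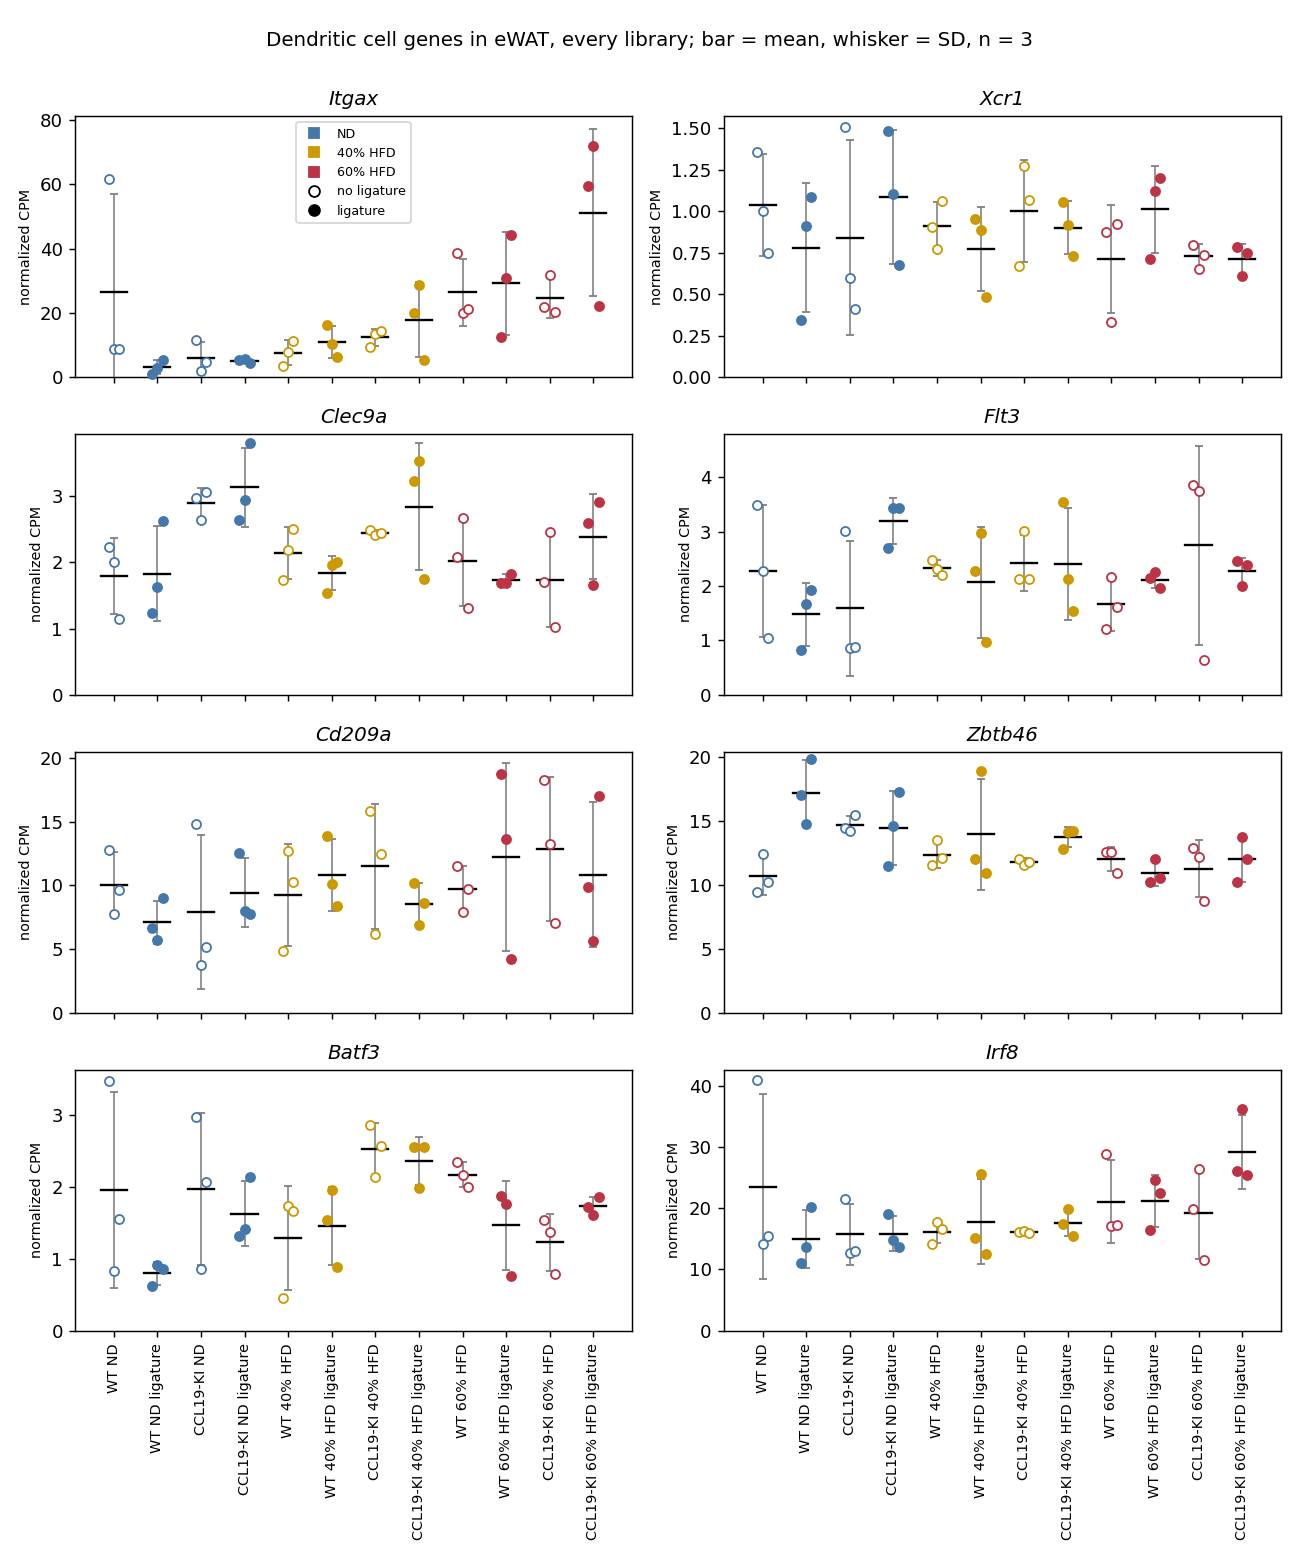
Normalized CPM of the 8 genes (vertical axis, 1 panel per gene) in the 12 groups (horizontal axis). Each point is 1 library, open without and filled with ligature, coloured by diet, the bar is the group mean and the whisker its SD (n = 3), drawn only down to 0. *Itgax* climbs towards the 60% HFD groups, with 1 WT ND library at 61.7 CPM. In the other 7 genes the highest group mean is at most 3.17 times the lowest, and *Zbtb46* stands highest in ligatured WT mice on ND.

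*Itgax* was the member that varied most over the groups. Its group mean was lowest in ligatured WT mice on ND, at 2.98 ± 2.18 CPM (SD, n = 3), and highest in ligatured CCL19-KI mice on 60% HFD, at 51.1 ± 26.0 CPM (SD, n = 3), 17.1 times as high. In the test for any difference among the 12 groups, 24.1% of all genes were called, and *Itgax* was the only member called (adjusted p = 0.00513, limma F test). *Zbtb46* followed with an adjusted p of 0.0761, and *Clec9a* and *Batf3* with 0.152 and 0.162 in the same test. *Irf8* (0.364), *Flt3* (0.666), *Xcr1* (0.891) and *Cd209a* (0.920) were further from the threshold. Groups next to each other in the order of means always overlapped for every member. Only for *Zbtb46* and *Batf3* did 1 of the 11 steps exceed the larger SD of the groups beside it.

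*Cd209a*, *Xcr1* and *Flt3* showed the least difference between groups. Of the variance of *Cd209a* on the log2 scale over the 36 libraries, 16.5% lay between the groups, against 69.5% for *Itgax*, 55.8% for *Zbtb46*, 49.1% for *Clec9a*, 46.7% for *Batf3*, 36.0% for *Irf8*, 26.8% for *Flt3* and 20.9% for *Xcr1*. Mice of the same group could differ in *Cd209a* by nearly as much as the whole series did. In ligatured WT mice on 60% HFD it stood at 18.8, 13.6 and 4.23 CPM, and in CCL19-KI mice on 60% HFD without ligature at 18.3, 13.3 and 7.02 CPM. Its group means ran from 7.11 CPM in ligatured WT mice on ND to 12.9 CPM in that CCL19-KI group. *Flt3* had a similar spread in the same CCL19-KI group, at 3.86, 3.75 and 0.638 CPM, where the low value belongs to the library whose *Ccl19* level goes against its label. *Xcr1* ran from 0.334 CPM in a WT mouse on 60% HFD to 1.51 CPM in a CCL19-KI mouse on ND, both without ligature. *Irf8*, by contrast, was nearly level within CCL19-KI mice on 40% HFD without ligature, at 16.1, 16.3 and 15.9 CPM.

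The first comparison asked how the diets differed, averaged over genotype and ligature. On 60% HFD against ND, *Itgax* rose and *Zbtb46* fell, and the other 6 genes were not called. That is 2 of 8 members in a comparison that called 18.6% of all genes, so the share of members is near the background. *Itgax* had a lowest value of 0.827, a median of 5.27 and a highest of 61.7 CPM in the 12 ND libraries, and 12.4, 26.4 and 72.0 CPM in the 12 libraries of 60% HFD. The ranges overlap only through WT ND replicate 1, since the next highest ND library had 11.5 CPM. The means were 32.9 ± 17.9 CPM on 60% HFD and 10.1 ± 16.5 CPM on ND (SD, n = 12), with a log2 difference of 2.14 (SE 0.33, 95% interval 1.45 to 2.82, adjusted p = 0.000236, limma). The call was kept by edgeR (adjusted p = 0.000806), in every fit that left out 1 library, and with 34 libraries (log2 difference 2.06, adjusted p = 0.00109, 15.0% of genes called).

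*Zbtb46*, which in this tissue endothelial cells can also make, went the other way. Its lowest, median and highest values were 9.46, 14.5 and 19.8 CPM on ND and 8.74, 12.0 and 13.7 CPM on 60% HFD. The 60% HFD libraries thus reached less high than the ND libraries, and their lowest value, under the ND range, came from the library labelled CCL19-KI 60% HFD replicate 3. The means were 14.2 ± 3.01 CPM on ND and 11.5 ± 1.42 CPM on 60% HFD (SD, n = 12), and the log2 difference was -0.27 (SE 0.08, 95% interval -0.44 to -0.09, adjusted p = 0.0298, limma). With 34 libraries the log2 difference was -0.20 and no longer passed (adjusted p = 0.0981). The call held in 29 of the 36 fits that left out 1 library. With the level of hepatocyte markers as a covariate the log2 difference was -0.16 and did not pass (adjusted p = 0.298). Of 7 endothelial markers, 3 were called higher and none lower on 60% HFD against ND, where 18.6% of all genes were called. Their log2 differences ran from -0.11 to 0.84. Mesothelial markers, which correlated with *Zbtb46* over the 36 libraries at r = 0.50, had 1 of 5 called lower. The log2 differences of these 5 ran from -0.81 to -0.39, with a median of -0.76. The part of either cell type in the level of *Zbtb46* was not tested.

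Among the transcription factors and receptors not called, *Irf8* had the largest difference on 60% HFD. It reached 11.5, 23.5 and 36.3 CPM (lowest, median, highest) on 60% HFD and 11.0, 14.5 and 41.1 CPM on ND, where the highest value again came from WT ND replicate 1. The log2 difference was 0.39 (95% interval 0.05 to 0.72, adjusted p = 0.0916, limma). Without WT ND replicate 1 it passed the threshold (adjusted p = 0.0144), and so it did without the library labelled CCL19-KI 60% HFD replicate 3 (adjusted p = 0.0423). *Cd209a* averaged 11.4 ± 4.89 CPM on 60% HFD and 8.62 ± 3.34 CPM on ND (SD, n = 12; 95% interval of the log2 difference -0.14 to 0.81). The cDC1 genes *Clec9a* (log2 difference -0.19, 95% interval -0.42 to 0.04) and *Xcr1* (-0.10, -0.31 to 0.12) and the growth factor receptor *Flt3* (0.06, -0.30 to 0.42) did not pass. *Batf3* did not pass either (0.08, -0.21 to 0.38).

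On 40% HFD against ND no member was called by limma, edgeR or DESeq2, where limma called 9.21% of all genes, and 1 member had an unadjusted p under 0.05. That member was *Itgax*, with 3.46, 10.8 and 28.6 CPM (lowest, median, highest) on 40% HFD and a log2 difference of 0.76 (95% interval 0.07 to 1.44, adjusted p = 0.144, limma). Without WT ND replicate 1 the log2 difference was 0.98 and passed (adjusted p = 0.0360). With 34 libraries it was 0.65 and did not (adjusted p = 0.242, 7.90% of genes called). Between the high-fat diets, *Itgax* was higher on 60% than on 40% HFD (log2 difference 1.38, 95% interval 0.69 to 2.06, adjusted p = 0.0474, limma), the only member among 0.745% of genes called. This call was close to the threshold. It was kept with 34 libraries (adjusted p = 0.0373, 1.52% of genes called) and in 15 of the 36 fits that left out 1 library, and edgeR did not make it (adjusted p = 0.0620). Within each genotype and ligature state, the 4 contrasts of 60% with 40% HFD called none of 32 member tests by limma or edgeR, while 4 had an unadjusted p under 0.05 by limma. These contrasts called 9.53% of genes in CCL19-KI mice without ligature and 0% in the other 3. *Itgax* in WT mice without ligature had an adjusted p of 0.742 there, and *Batf3* in CCL19-KI mice without ligature one of 0.127 (limma). *Irf8* averaged 22.7 ± 6.71 CPM on 60% and 16.9 ± 3.32 CPM on 40% HFD (SD, n = 12; log2 difference 0.37, adjusted p = 0.317). A looser pair of criteria asked for an unadjusted p of 0.05 or less together with a large enough log2 difference from limma. Taken out of the log2 scale, that difference had to reach 1.5 or fall to 0.67. Group means of CPM were not used for it. By these criteria, *Itgax* was the 1 member to pass in each diet comparison, against 7.90% of genes for 40% HFD against ND, 9.88% for 60% HFD against ND and 2.27% for 60% against 40% HFD. The median log2 difference of the 8 members on 60% HFD against ND was 0.07, beside 0.01 for all genes tested.

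**Figure D2:**
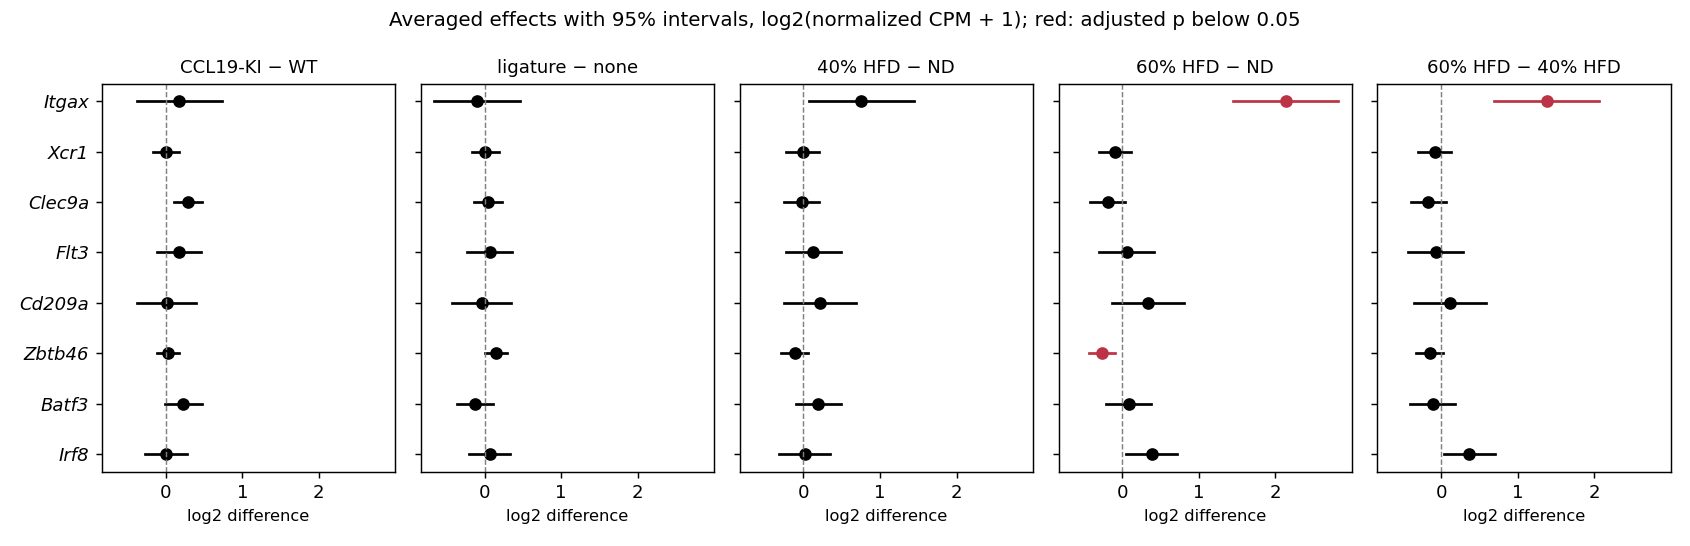
Log2 differences of the 8 genes (rows) in the 5 averaged comparisons (panels), with 95% intervals from limma on log2(normalized CPM + 1). Red marks adjusted p below 0.05. *Itgax* on 60% HFD stands at 2.14 against ND and 1.38 against 40% HFD, and *Zbtb46* at -0.27 against ND, while all other intervals carry no call.

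Within single genotypes and ligature states, with 3 mice against 3, the high-fat diets were compared with ND in 8 contrasts, which gave 64 tests of members, of which 4 were called and 9 had an unadjusted p under 0.05. In ligatured CCL19-KI mice *Itgax* stood at 59.4, 72.0 and 22.0 CPM on 60% HFD and at 5.35, 5.46 and 4.41 CPM on ND. All 3 of the former lay above all 3 of the latter (log2 difference 2.95, adjusted p = 0.00661, limma, in a comparison that called 12.8% of genes). In ligatured WT mice it stood at 12.4, 30.9 and 44.2 CPM on 60% HFD and at 0.827, 2.94 and 5.18 CPM on ND (log2 difference 2.92, adjusted p = 0.0177, 2.57% of genes called). This call was lost without replicate 1 or 2 of the ND group (log2 difference 2.44, adjusted p = 0.191, and 3.00, adjusted p = 0.0651) and without replicate 2 or 3 of the 60% HFD group (adjusted p = 0.0880 and 0.0923). In CCL19-KI mice without ligature it stood at 21.9, 31.8 and 20.4 CPM on 60% HFD and at 11.5, 1.73 and 4.54 CPM on ND (log2 difference 2.14, adjusted p = 0.0433, 10.2% of genes called). This last call was lost with edgeR (adjusted p = 0.0569), with the hepatocyte covariate (0.131), with a pseudocount of 5 (0.0568) and with 34 libraries (log2 difference 2.26, adjusted p = 0.0596, 8.51% of genes called). It was also lost in 6 of the 36 fits that left out 1 library, with the smallest log2 difference, 1.60, without CCL19-KI ND replicate 2 (adjusted p = 0.216). In WT mice without ligature no member was called, where 3.41% of genes were. There WT ND replicate 1 put the ND group at 61.7, 8.85 and 8.60 CPM, beside 38.5, 19.9 and 21.0 CPM on 60% HFD.

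The fourth of these calls was *Zbtb46* in ligatured WT mice. Its values were 10.2, 12.0 and 10.5 CPM on 60% HFD and 17.0, 14.7 and 19.8 CPM on ND, with no overlap. The log2 difference was -0.61 (adjusted p = 0.0491, limma), and it held in 11 of the 36 fits that left out 1 library. It was lost with edgeR (adjusted p = 0.0513), median-of-ratios scaling (0.0518), no filter (0.0643), separate fits by ligature (0.0647), the hepatocyte covariate (0.0654) and no normalization factor (0.118). *Irf8* in ligatured CCL19-KI mice stood at 26.1, 36.3 and 25.5 CPM on 60% HFD and at 19.1, 14.9 and 13.7 CPM on ND. The groups did not overlap, but the test did not pass with 36 libraries (log2 difference 0.84, adjusted p = 0.0805, limma) and passed with 34 (adjusted p = 0.0469, 19.6% of genes called). On 40% HFD against ND no member was called in any of the 4 contrasts, which called 6.03% of genes in WT mice without ligature, 0.207% in WT mice with ligature, 0% in CCL19-KI mice without and 4.92% in CCL19-KI mice with ligature. In 2 of these contrasts *Itgax* had an unadjusted p under 0.05, with log2 differences of 1.67 in WT (adjusted p = 0.304, limma) and 1.37 in CCL19-KI mice (adjusted p = 0.217), both ligatured.

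The next comparison asked whether CCL19 overexpression in adipocytes went with other levels of dendritic cell genes. Averaged over diet and ligature, no member was called by limma, edgeR or DESeq2 with 36 libraries, where limma called 0.459% of all genes, and 1 member, *Clec9a*, had an unadjusted p under 0.05. By the looser criteria no member passed either (0.454% of genes). *Clec9a* had lowest, median and highest values of 1.03, 2.62 and 3.80 CPM in CCL19-KI and 1.15, 1.90 and 2.67 CPM in WT mice. The ranges overlap, and the median of the CCL19-KI libraries lies near the top of the WT range. The means were 2.57 ± 0.696 and 1.89 ± 0.449 CPM (SD, n = 18), a ratio of 1.36, with a log2 difference of 0.29 (SE 0.09, 95% interval 0.11 to 0.48, p = 0.00319, adjusted p = 0.114, limma).

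With the 34 libraries, *Clec9a* was called, at a log2 difference of 0.34 (SE 0.09, adjusted p = 0.0287, limma). The same fit called 7.35% of all genes for genotype, many more than with 36 libraries, so *Clec9a* is 1 of 8 members beside a higher background. Leaving out the library labelled CCL19-KI 60% HFD replicate 3 alone also gave the call (log2 difference 0.33, adjusted p = 0.0458). That library had the lowest *Clec9a* of all 36, 1.03 CPM, and the lowest *Flt3*, 0.638 CPM. *Flt3* averaged 2.44 ± 1.00 CPM in CCL19-KI and 1.99 ± 0.686 CPM in WT mice (SD, n = 18), with a log2 difference of 0.17 with 36 libraries (adjusted p = 0.563, limma) and 0.26 with 34 (adjusted p = 0.179). *Batf3*, the factor of the cDC1 lineage, averaged 1.91 ± 0.639 CPM in CCL19-KI and 1.52 ± 0.761 CPM in WT mice (SD, n = 18; log2 difference 0.23, 95% interval -0.01 to 0.47, adjusted p = 0.316, limma). *Xcr1*, the other cDC1 receptor, had 0.878 ± 0.309 and 0.870 ± 0.275 CPM (log2 difference 0.00, 95% interval -0.17 to 0.18). *Itgax* (95% interval -0.38 to 0.74), *Cd209a* (-0.37 to 0.40), *Zbtb46* (-0.11 to 0.17) and *Irf8* (-0.27 to 0.28) did not pass. The members' median log2 difference was 0.10, beside -0.02 for all genes tested.

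Within each diet and ligature state, CCL19-KI and WT mice were compared in 6 contrasts, and none of the 48 tests of members was called by limma, while 6 had an unadjusted p under 0.05. Where groups are said not to overlap, here or elsewhere, this only describes the mice. The share of all genes without overlap was not counted, so non-overlap is not read as a difference. Among mice without ligature these contrasts called 16.6% of genes on ND, 0.00560% on 40% HFD and 16.8% on 60% HFD. Among ligatured mice they called 1.03% on ND and 0.0112% each on 40% and 60% HFD. *Clec9a* did not overlap between the genotypes on ND, with 2.97, 2.65 and 3.07 CPM in CCL19-KI against 2.23, 2.00 and 1.15 CPM in WT mice without ligature, and 2.65, 2.95 and 3.80 CPM against 1.24, 1.62 and 2.63 CPM with it. The log2 differences were 0.50 (adjusted p = 0.116, limma) and 0.57 (adjusted p = 0.246). On 60% HFD without ligature *Clec9a* had 1.70, 2.45 and 1.03 CPM in CCL19-KI and 2.08, 2.67 and 1.31 CPM in WT mice, which overlap. With 34 libraries, which leave this CCL19-KI group with 2, no member was called in that comparison (17.8% of genes were), and the log2 difference of *Clec9a* turned from -0.15 to 0.04. The test of whether the genotype difference in *Clec9a* was unlike on 60% HFD and on ND, averaged over ligature, gave -0.46 on the log2 scale (adjusted p = 0.216, limma), so that a difference between the diets was not shown.

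*Flt3* did not overlap between the genotypes in ligatured mice on ND, with 2.70, 3.44 and 3.43 CPM in CCL19-KI and 0.827, 1.67 and 1.93 CPM in WT mice (log2 difference 0.78, adjusted p = 0.335, limma). Without ligature on the same diet it had 3.02, 0.864 and 0.884 CPM in CCL19-KI and 3.48, 2.28 and 1.05 CPM in WT mice, which overlap. *Batf3* did not overlap on 40% HFD without ligature, with 2.86, 2.14 and 2.57 CPM in CCL19-KI and 0.451, 1.74 and 1.67 CPM in WT mice (log2 difference 0.68, adjusted p = 0.713, limma). On 60% HFD without ligature the order was the other way, with 1.53, 1.37 and 0.785 CPM in CCL19-KI and 2.35, 2.17 and 2.00 CPM in WT mice (log2 difference -0.52, adjusted p = 0.210, limma). With 34 libraries *Batf3* there was at -0.37 (adjusted p = 0.378), and *Flt3* at 0.87 (adjusted p = 0.0652) beside 0.35 with 36 (adjusted p = 0.532). *Itgax* and *Zbtb46* differed by -1.66 (adjusted p = 0.0841) and 0.43 (adjusted p = 0.0759, limma) between CCL19-KI and WT mice on ND without ligature. With 34 libraries, which leave this WT group with 2, both passed, at -2.10 (adjusted p = 0.0497) and 0.53 (adjusted p = 0.0335), beside 19.5% of genes called. The remaining WT values of *Itgax*, 61.7 and 8.60 CPM, are far apart.

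The effect of the ligature was asked next. Averaged over genotype and diet no member was called by limma, edgeR or DESeq2, where limma called 0.325% of all genes, and 1 member, *Zbtb46*, had an unadjusted p under 0.05. With 34 libraries no member was called by limma either (0.358% of genes), and the looser criteria, met by 1.28% of genes, passed none. *Zbtb46* had lowest, median and highest values of 10.2, 13.2 and 19.8 CPM with and 8.74, 12.1 and 15.4 CPM without ligature (log2 difference 0.15, 95% interval 0.01 to 0.29, adjusted p = 0.290, limma). The other 7 members had adjusted p of 0.608 or more. Within single groups, 2 of 48 tests were called and 4 had an unadjusted p under 0.05, and both calls fell in WT mice on ND, where 6.73% of genes were called. *Itgax* was lower with the ligature, with 0.827, 2.94 and 5.18 CPM against 61.7, 8.85 and 8.60 CPM without (log2 difference -2.35, adjusted p = 0.0346, limma). Without WT ND replicate 1 the log2 difference was -1.46 and did not pass (adjusted p = 0.212), and it was also lost without replicate 1 or 2 of the ligatured group (adjusted p = 0.204 and 0.103), with a pseudocount of 5 (0.0627) and with the hepatocyte covariate (0.0996). *Zbtb46* was higher with the ligature, with 17.0, 14.7 and 19.8 CPM against 9.46, 12.4 and 10.2 CPM (log2 difference 0.63, adjusted p = 0.0256, limma). This call was lost without replicate 1 or 3 of the group without ligature (adjusted p = 0.109 and 0.0670), without any 1 of the 3 ligatured mice (0.115, 0.0534 and 0.0697) and with no scaling factor (0.0942). Neither gene overlapped between these groups. Summed mesothelial markers also lay apart there, at 1083 to 1230 CPM with the ligature and 327 to 502 CPM without. Hepatocyte markers summed to 1018 to 8277 CPM with it and 10.7 to 16.0 CPM without. The part of mesothelial RNA in these 2 calls was not tested.

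With 34 libraries, in which WT ND without ligature had 2, both calls stood, for *Itgax* at -2.79 (adjusted p = 0.0193) and for *Zbtb46* at 0.74 (adjusted p = 0.00931), and *Batf3* joined them at -0.92 (adjusted p = 0.0451), beside 10.8% of genes called. *Batf3* had 0.621, 0.912 and 0.851 CPM with the ligature and 3.48, 0.835 and 1.55 CPM without. These overlap only through the 0.835 CPM of WT ND replicate 2, a library that is not among the 34. In the other 5 ligature contrasts no member was called by limma. They called 1.37% of genes in CCL19-KI mice on ND, 5.66% in CCL19-KI mice on 60% HFD and 0% in the WT mice on 40% HFD, the WT mice on 60% HFD and the CCL19-KI mice on 40% HFD. *Flt3* in CCL19-KI mice on ND had the lowest p of these tests, with 2.70, 3.44 and 3.43 CPM with the ligature and 3.02, 0.864 and 0.884 CPM without (log2 difference 0.79, adjusted p = 0.229, limma).

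Whether the effects differed between conditions was tested in 8 interactions, and none of the 64 tests of members was called by limma, while 6 had an unadjusted p under 0.05. Averaged over the other factor, they called 0.00560% of genes for genotype by ligature, 0% for genotype by 40% HFD and 0.476% for genotype by 60% HFD. Ligature by 40% HFD called 0.00560% and ligature by 60% HFD 0%. Within single diets, genotype by ligature called 7.59% on ND, 0% on 40% HFD and 0.0112% on 60% HFD. On ND, the ligature difference of *Zbtb46* was smaller in CCL19-KI than in WT mice by 0.68 on the log2 scale (coefficient -0.68, adjusted p = 0.0751, limma). With 34 libraries that coefficient was -0.78 and passed (adjusted p = 0.0404, 7.99% of genes called). For *Itgax* on ND it was 2.43 (adjusted p = 0.107) and for *Flt3* 1.15 (adjusted p = 0.143), both with 36 libraries. For the ligature difference of *Itgax*, the coefficient of 40% HFD against ND was 1.52 (adjusted p = 0.452) and that of 60% HFD 1.60 (adjusted p = 0.279, limma). Both are signed gaps and not larger effects, since the ligature difference in WT mice on ND was negative.

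Of the 28 pairs of members, 3 had a Pearson r over 0.5 on log2(normalized CPM + 1) over the libraries, and the median was 0.31. After removing group means 8 pairs were over 0.5, and the median was 0.39. These correlations are over 36 libraries that share groups, depth and cell content, and describe them only. *Itgax* and *Irf8* were the closest pair (r = 0.77, and 0.75 within groups). *Cd209a* and *Batf3* had r = 0.52 (0.70 within groups), and *Xcr1* and *Flt3* r = 0.50 (0.48 within groups). *Itgax* and *Xcr1* had r = 0.24 but 0.62 within groups. *Irf8* had within-group r of 0.61 with *Flt3* and 0.57 with *Batf3*, against 0.46 and 0.42 over the libraries. *Itgax* and *Zbtb46* had the lowest r, -0.50, which was 0.01 within groups. The pair *Xcr1* and *Clec9a*, both marks of cDC1, had r = 0.14.

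**Figure D3:**
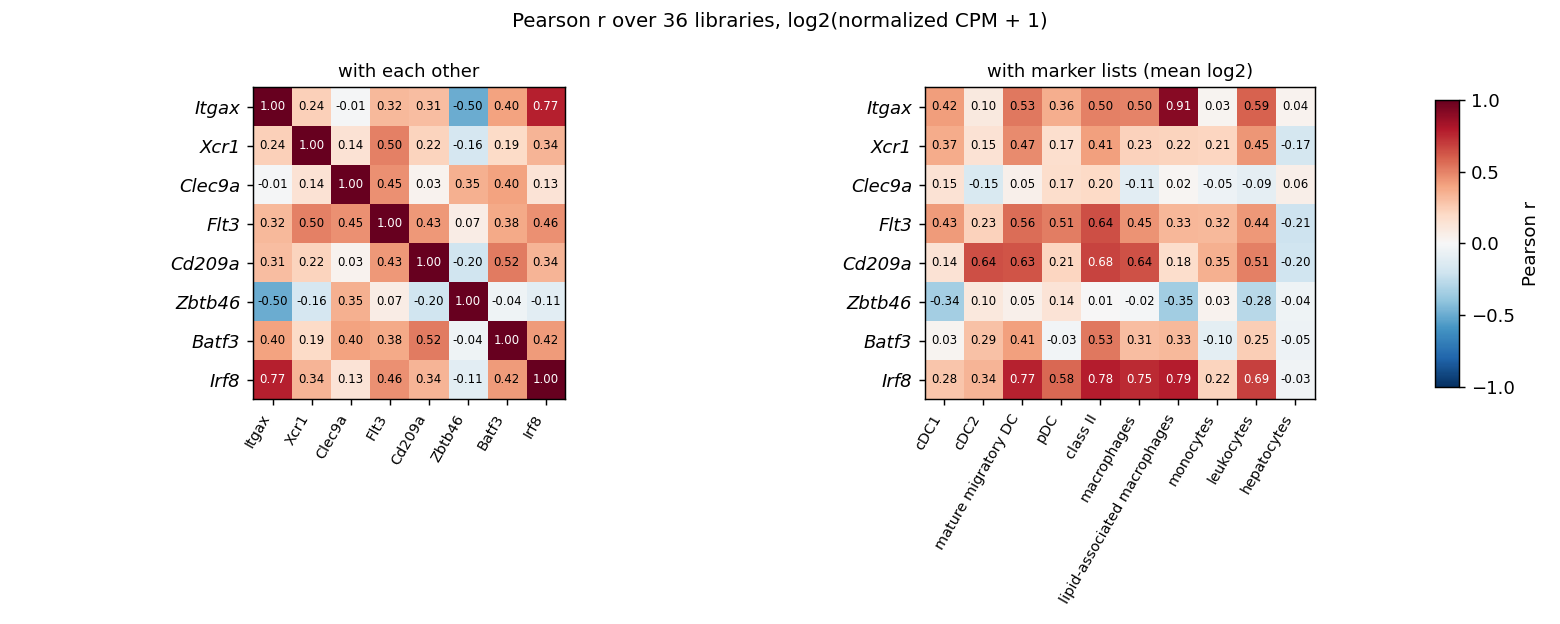
Pearson r over 36 libraries of the 8 genes with each other (left) and with the mean log2 level of 10 marker lists (right), on log2(normalized CPM + 1). Colour runs from blue at -1 to red at 1. *Itgax* with lipid-associated macrophage markers (0.91) is the darkest cell off the diagonal, and *Clec9a* is pale across all lists.

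Beside the members, lists of other cell-type genes were read in the same libraries. *Itgax* went with markers of lipid-associated macrophages, the cells that gather around lipid in obese fat and that express *Trem2*, *Cd9* and *Gpnmb* (r = 0.91, and 0.85 within groups). The summed level of the 8 genes of that list ran from 542 to 3480 CPM on ND (median 1018), from 734 to 2026 CPM on 40% HFD (median 1557) and from 1604 to 3700 CPM on 60% HFD (median 2330). WT ND replicate 1, the ND library with 61.7 CPM of *Itgax*, was also the ND library with the highest sum. On 60% HFD against ND, 7 of the 8 were called higher and none lower, where 18.6% of all genes were called. The median log2 difference of the 8 was 1.34, beside 0.01 for all genes tested. *Irf8* had like r with several lists, these lipid-associated macrophage genes (0.79, and 0.78 within groups), the MHC class II genes (0.78, and 0.81), the mature migratory dendritic cell genes (0.77, and 0.81) and general macrophage markers (0.75, and 0.79). *Cd209a* had like r with several lists, the growth factors and receptors (0.70), the class II genes (0.68), the cDC2 list (0.64, and 0.84 within groups) and general macrophage markers (0.64, and 0.69 within groups). *Flt3* was closest to the class II genes (r = 0.64). *Clec9a* had r = 0.02 with lipid-associated (0.37 within groups) and -0.11 with general macrophage markers (0.18 within groups). The part of macrophages in the level of *Itgax* was not tested.

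**Figure D4:**
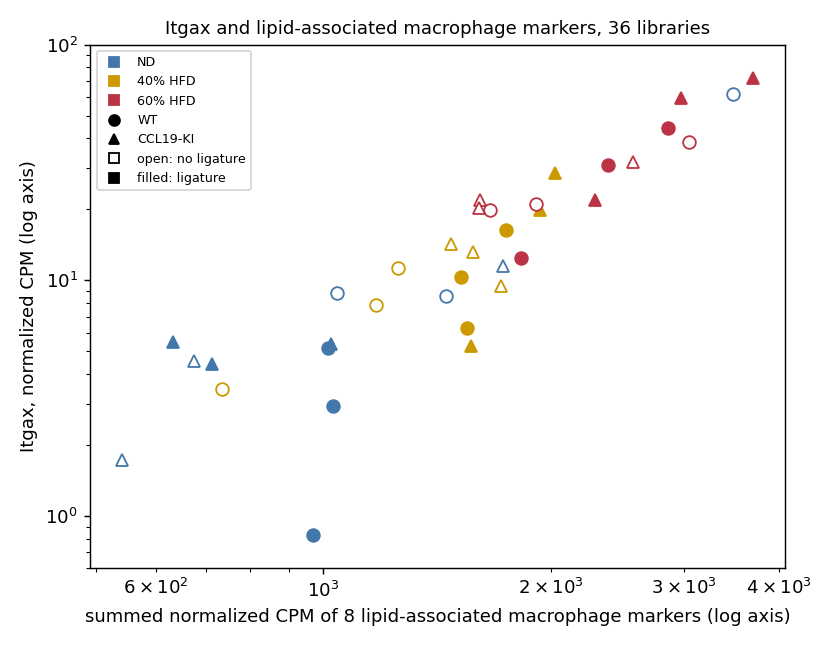
*Itgax* (vertical, normalized CPM, log axis) against the summed normalized CPM of 8 lipid-associated macrophage markers (horizontal, log axis), 1 point per library. Colour gives the diet, shape the genotype and filling the ligature. The 60% HFD libraries lie at 12.4 CPM of *Itgax* and above, and 1 ND library at 61.7 CPM lies among them.

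The genes whose levels were most like each member differed in kind. For *Itgax* they were *Adam8* (r = 0.92 over 36 libraries), *Mmp12* (0.91) and *Gpr50* (0.90), of which *Adam8* and *Mmp12* encode metalloproteinases made by macrophages. For *Irf8* they were *Arhgap9* (0.93), *Nckap1l* (0.91), which encodes a part of the actin machinery of blood cells, and *Bcl2a1b* (0.91). *Batf3* was closest to *Skint3* (0.76), *Rgs4* (0.70) and *Ccr2* (0.70), the receptor that brings monocytes into tissue. *Flt3* was closest to *Itgb7* (0.77), an integrin chain of lymphocytes and dendritic cells, *Tmsb4x* (0.65) and *Tra2a* (0.64). *Cd209a* had *Dpysl3*, *Samd4* and *Islr2* (0.83 each). *Zbtb46* had *Hoxa3* (0.82), *Pla2r1* (0.79) and *Gm37745* (0.78). *Clec9a* had *Gm37522* (0.72), *4930470H14Rik* (0.69) and *Gm43201* (0.67), and *Xcr1* had *Ppil3* (0.60), *Lims1* (0.57) and *Rom1* (0.56).

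Ligands and partners of the members were also read. Averaged over diet and ligature, *Flt3l*, the ligand of the receptor *Flt3*, was higher in CCL19-KI mice, at 5.78 ± 1.54 CPM against 4.22 ± 0.99 CPM in WT mice (SD, n = 18; log2 difference 0.37, SE 0.08, adjusted p = 0.0203, limma, 0.459% of genes called). On ND it ran from 6.51 to 8.72 CPM in CCL19-KI and from 4.00 to 6.35 CPM in WT mice. The genotypes overlapped on 40% HFD and in ligatured mice on 60% HFD, but not without ligature on 60% HFD. *Flt3l* fell on 60% HFD against ND (log2 difference -0.40, adjusted p = 0.00530) and on 40% HFD (-0.42, adjusted p = 0.00950). *Flt3* itself was called in none of these comparisons. *Itgb2*, whose product pairs with that of *Itgax* to form a complement receptor, rose on 60% HFD against ND (log2 difference 0.88, adjusted p = 0.0101). Its lowest, median and highest values were 15.2, 37.3 and 136 CPM on ND and 39.0, 73.8 and 138 CPM on 60% HFD. *Clec12a*, a relative of *Clec9a* on myeloid cells, rose in the same comparison (0.97, adjusted p = 0.0259), while *Clec9a* did not. *Irf4*, the relative of *Irf8* used by cDC2 and also made by adipocytes, fell on 60% HFD (log2 difference -1.60, adjusted p = 0.000777, limma), from a median of 31.4 CPM on ND to 10.3 CPM. *Ccr7*, the receptor of CCL19, had a mean of 1.44 ± 0.320 CPM on 60% HFD and 1.03 ± 0.523 CPM on ND (SD, n = 12; adjusted p = 0.111), and did not pass for genotype (adjusted p = 0.850). *Xcl1*, the ligand of *Xcr1*, was under the filter with a mean of 0.158 CPM.

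Of the other dendritic cell lists, the cDC1 list had 0 of 10 genes called on 60% HFD against ND by limma (median log2 difference 0.15). The cDC2 list had 2 of 11 called higher and 2 lower, the latter being *Irf4* and *Esam* (log2 difference -0.34, adjusted p = 0.0320) and the former *Cd1d1* (0.54, adjusted p = 0.0126) and *Ltbr* (0.24). Mature migratory dendritic cell genes had 2 of 12 higher, *Ccl22* (0.68, adjusted p = 0.00151) and *Fscn1* (0.59, adjusted p = 0.00566), a chemokine and an actin-bundling protein, and 1 lower, *Cacnb3* (-0.66, adjusted p = 0.0138). Plasmacytoid dendritic cell genes had 1 of 11 higher, *Runx2* (1.00, adjusted p = 0.0285), and class II genes 1 of 10, *H2-DMb1* (0.79, adjusted p = 0.0378). Of growth factor genes and their receptors, *Csf2rb2* rose (0.84, adjusted p = 0.00273) and *Flt3l* fell, among 11. Among all genes tested 18.6% were called. For genotype *Flt3l* was the only call in these 6 lists by limma, where 0.459% of all genes were called. For the ligature there was none, where 0.325% of all genes were called. T cell markers were low, with sums of 3.37 to 18.8 CPM over all libraries. B cell markers had median sums of 124 CPM on ND, 237 CPM on 40% HFD and 364 CPM on 60% HFD. These sums follow mainly the immunoglobulin gene *Ighm*, at a mean of 266 CPM over all libraries. On 60% HFD against ND *Ighm* was the 1 of the 8 called higher (log2 difference 1.41, adjusted p = 0.00232, limma). The median log2 difference of the 8 was -0.16, so most of these markers did not rise with it. Of 8 hepatocyte markers, 7 rose on 60% HFD, with a median log2 difference of 3.05. With those markers as a covariate, *Itgax* on 60% HFD against ND stood at a log2 difference of 2.13 (adjusted p = 0.00152, limma).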

How the data were processed

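eWAT RNA was depleted of ribosomal RNA, made into directional libraries and sequenced on a DNBSEQ-G400. The authors trimmed reads (Trimmomatic 0.38 per the labels), aligned and counted them with Bowtie2 and RSEM 1.3.0, and deposited a signal table of counts scaled to CPM by edgeR. The paper names build mm10 and the labels GRCm39. Coordinates here are GENCODE M21 and RefSeq on GRCm38, matched by gene identifier. Of 24750 identifiers 24626 had a symbol.

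Whole reads were recovered from the deposited signal (100% of values within 0.01 of a whole read). Tests used log2(CPM + 1) in limma 3.58.1 (R 4.3.3), one fit of 12 groups, on 17852 genes with at least 1 CPM in at least 3 libraries, with Benjamini-Hochberg adjustment over all genes and calls at adjusted p below 0.05. Ratios on this scale understate changes of low genes. edgeR 4.0.16 and DESeq2 1.42.0 ran on recovered reads. In data simulated for CCL19-KI against WT (17531 genes, 195 changed), limma called 150 genes, 142 of them changed. The simulated libraries had no diet or ligature differences, so these counts are not error rates for the real libraries. Named genes were the 8 members, listed relatives, the lowest p values of each list and the 3 genes most correlated with each member. The members, lists and tests were chosen with earlier results of these data known. Intervals are 95%. The main fit did not pair mice by replicate number. Deviations of same-numbered mice had a median r of -0.015 (198 pairs, from -0.66 to 0.71). Mice of other numbers and groups had a median r of 0.017 (396 pairs). These medians cannot exclude pairing within some groups. Pairs within groups differed beyond counting noise (chi-square per degree of freedom at least 16.1), so no library was counted as a copy. Python 3.11.15, pandas 2.3.3 and numpy 2.4.6 prepared tables, and matplotlib 3.10.9 drew figures.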

Additional observations from a re-analysis of the deposited data

How the results depend on the processing

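The rise of *Itgax* on 60% HFD against ND kept its call under every alternative run, the fall of *Zbtb46* did not, and *Itgax* on 60% against 40% HFD changed with several settings. For that last comparison the count of members called went from 1 to 0 with a pseudocount of 0.1, with no filter, with quantile normalization, with edgeR, with the hepatocyte covariate and with the replicate block, and to 2 with *Ptprc* as covariate, where 338 of 17852 genes were called beside 133 as reported. With the replicate number as a block the adjusted p of *Itgax* there was 0.0524, and the block, whose numbers share no mouse, changed no other averaged call. Sample quality weights, whose estimate stopped before it converged, gave 1 member for genotype, 2 for 40% HFD against ND and 5 for 60% HFD against ND. With those weights 3795, 4797 and 7846 of 17852 genes were called in these comparisons, beside 82, 1645 and 3315 as reported. The hepatocyte covariate gave 1 for 60% HFD against ND, since *Zbtb46* was then at -0.16 (adjusted p = 0.298). The 34 libraries gave 1 for genotype and 1 for 60% HFD against ND. A pseudocount of 5, median-of-ratios scaling, robust eBayes and DESeq2 gave the same 5 counts as reported. A filter at a mean of 5 CPM left *Itgax*, *Cd209a*, *Zbtb46* and *Irf8* and gave the same counts, with the other 4 members not tested. Separate fits of mice with and without ligature lost 2 calls on 60% HFD against ND, *Itgax* in CCL19-KI mice without ligature (adjusted p = 0.115) and *Zbtb46* in ligatured WT mice (adjusted p = 0.0647). Leaving out each library in turn gave 0 to 1 members for genotype, 0 to 0 for the ligature, 0 to 1 for 40% HFD against ND, 1 to 3 for 60% HFD against ND and 0 to 1 for 60% against 40% HFD. Scaling to reads alone, with no normalization factor, moved the median of all genes on 40% HFD against ND to -0.13, from -0.02. Where a cause is not given by the setting itself, it was not tested. Depth limits *Xcr1* most, at 4 to 32 reads per library.

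The sign of several uncalled log2 differences near 0 turned. For genotype, *Xcr1* was -0.10 with quantile normalization and -0.00081 with the hepatocyte covariate. There *Cd209a* was -0.057 with quality weights and -0.021 with the hepatocyte covariate. In the same comparison *Irf8* was -0.0066 with edgeR, -0.015 with DESeq2, -0.0015 with *Ptprc* as covariate and -0.0041 with the hepatocyte covariate. For the ligature, *Cd209a* was 0.012 with no scaling factor and 0.027 with quality weights. There *Itgax* was 0.068 with quality weights. In the same comparison *Clec9a* was -0.016 with quality weights. There *Xcr1* was -0.019 with *Ptprc* as covariate. In the same comparison *Flt3* was -0.015 with *Ptprc* as covariate and -0.011 with 34 libraries. There *Irf8* was -0.039 with *Ptprc* as covariate and -0.030 with 34 libraries. For 40% HFD against ND, *Xcr1* was 0.021 with a pseudocount of 0.1, 0.035 with quantile normalization, 0.11 with quality weights and 0.033 with the hepatocyte covariate. There *Irf8* was -0.11 with no scaling factor, -0.011 with quantile normalization, -0.027 with edgeR, -0.022 with DESeq2, -0.23 with *Ptprc* as covariate and -0.048 with 34 libraries. In the same comparison *Clec9a* was 0.011 with quantile normalization and 0.069 with quality weights. There *Flt3* was -0.068 with *Ptprc* as covariate. In the same comparison *Zbtb46* was 0.017 with the hepatocyte covariate. For 60% HFD against ND, *Clec9a* was 0.0065 with quality weights. There *Flt3* was -0.16 with *Ptprc* as covariate. In the same comparison *Batf3* was -0.088 with *Ptprc* as covariate. For 60% against 40% HFD, *Flt3* was 0.0090 with quality weights and 0.058 with 34 libraries. Leaving out 1 library, the log2 difference for genotype ranged from -0.082 to 0.078 for *Cd209a*, from -0.042 to 0.081 for *Irf8* and from -0.037 to 0.032 for *Xcr1*. Leaving out 1 library, the log2 difference for the ligature ranged from -0.19 to 0.051 for *Itgax*, from -0.019 to 0.050 for *Xcr1*, from -0.10 to 0.056 for *Cd209a* and from -0.017 to 0.13 for *Flt3*. Leaving out 1 library, the log2 difference for 40% HFD against ND ranged from -0.057 to 0.052 for *Xcr1*, from -0.068 to 0.032 for *Clec9a* and from -0.053 to 0.14 for *Irf8*. Leaving out 1 library, the log2 difference for 60% HFD against ND ranged from -0.015 to 0.19 for *Flt3*. Leaving out 1 library, the log2 difference for 60% against 40% HFD ranged from -0.14 to 0.058 for *Flt3*.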
